A study of Mus musculus with 20 samples.

Results

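The insulin-like growth factor (IGF) axis and glypican 3 were followed in tumor-free mammary glands of 20 mice, through 10 genes: the ligands Igf1 and Igf2, the receptor Igf1r, the binding proteins Igfbp2, Igfbp3, Igfbp4, Igfbp5, Igfbp6 and Igfbp7, and Gpc3. They were chosen by gene symbol, are 10 of 18194 genes with a probe set, and all 10 were among the 12499 genes tested. The array holds 27 probe sets for them of 45101, and a gene with several is described by the brightest on average. The genes were picked with earlier results of these arrays known, and the lower Gpc3 level after tamoxifen was among those results. Gpc3 values in comparisons of tamoxifen with placebo animals are therefore given as a description, with no test, and Gpc3 is left out of the counts of genes that passed in those comparisons.

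Each array measured RNA from the whole number 4 gland of 1 female FVB/N mouse of line TgN(Nrl-tgfalpha)29EPS. All 20 animals, placebo controls included, were heterozygous for the NRL-TGFa transgene, in which a lipocalin promoter active in mammary epithelium drives transforming growth factor alpha, a ligand of the epidermal growth factor receptor. No gland without the transgene is among the samples. At 8.5 weeks of age each mouse had received an implant under the skin that released 5 mg of tamoxifen, a selective oestrogen receptor modulator, or held only the carrier (placebo). The gland was taken at 20.5 to 21 weeks, 4 weeks after treatment ended, and tumors were scored in the months that followed, up to an age of 2 years. Of the 10 placebo animals, 7 later had a tumor (animals 1, 2, 4, 7, 8, 9 and 10) and 3 did not (3, 5 and 6). Of the 10 tamoxifen animals, 3 later had a tumor (1, 2 and 10) and 7 did not (3 to 9). Values are RMA expression on the log2 scale, so a difference of 1 is a doubling, and a level of one probe set cannot be set against that of another.

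IGF1 and IGF2 are small secreted growth factors that act through the receptor tyrosine kinase IGF1R to drive cell growth and survival, and in the mammary gland stromal IGF1 acts on the ducts under the control of growth hormone and oestrogen. The IGF binding proteins hold most of the ligand in blood and tissue, lengthening its life or keeping it from the receptor, and IGFBP5 is known for its rise in the involuting gland. Glypican 3 is a heparan sulfate proteoglycan anchored to the cell surface, and its loss in humans causes an overgrowth syndrome.

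Gpc3 and Igfbp5 are the members whose means differed most between the larger groups, of 7 animals each, and the 250 bases before their annotated starts are shown to let their promoters be compared. Both are from RefSeq on GRCm38.p6, read 5′ to 3′ on the minus strand that each gene uses. The Gpc3 window is chrX:52613975-52614224 and the Igfbp5 window chr1:72874866-72875115. Capitals mark matches, on either strand, to the GC box core GGGCGG or to TATTTAA, which resembles the box that positions transcription starts.
Gpc3: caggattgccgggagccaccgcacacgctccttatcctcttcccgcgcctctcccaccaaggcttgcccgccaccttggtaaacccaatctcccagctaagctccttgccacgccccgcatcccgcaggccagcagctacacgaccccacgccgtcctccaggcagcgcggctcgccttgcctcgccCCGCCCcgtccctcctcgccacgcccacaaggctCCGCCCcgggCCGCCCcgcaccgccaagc
Igfbp5: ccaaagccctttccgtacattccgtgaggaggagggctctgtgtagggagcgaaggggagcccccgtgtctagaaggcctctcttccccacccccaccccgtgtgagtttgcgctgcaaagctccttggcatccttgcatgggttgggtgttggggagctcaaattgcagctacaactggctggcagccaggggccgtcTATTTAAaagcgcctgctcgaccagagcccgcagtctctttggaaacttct
The Gpc3 window held 3 matches to GGGCGG, each as its reverse complement, and none to TATTTAA. The Igfbp5 window held 1 match to TATTTAA and none to GGGCGG. Among 32851 promoter windows of the same length, 32.7% held GGGCGG and 4.18% held TATTTAA. Neither window held TATAAA (12.4% of windows), the oestrogen receptor half-site word GGTCA (35.2%) or the full palindrome GGTCANNNTGACC (0.0639%). The motifs were searched on both strands, GGTCA lies inside the palindrome, and no match or lack of one says whether a factor binds.

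Among placebo animals with tumors, 7, 8 and 9 lay apart from the other arrays on the first principal component (31.9% of the variance), and results that rest on them are given with and without them. Array medians ran from 6.82 to 6.89 and pairwise correlations from 0.977 to 0.997. The labelled tissue was borne out by its markers, with Adipoq, an adipocyte hormone, at means of 14.03 to 14.15 in the 4 groups, and 9 of 10 luminal epithelial markers above the filter level of 6.85 on every array. With 1 array per animal, the precision of each mean rests on the number of animals in its group.

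Igf1, the ligand most studied in this gland, did not pass the test in any comparison. Its level averaged 10.61 ± 0.40 (SD, n = 3) in placebo glands without a later tumor and 10.81 ± 0.27 (SD, n = 7) in those with one, and 10.73 ± 0.24 (SD, n = 7) and 10.79 ± 0.19 (SD, n = 3) in the corresponding tamoxifen glands. All 4 groups overlapped, and the lowest and the highest gland, placebo 3 at 10.21 and placebo 1 at 11.20, were both placebo glands. Tamoxifen minus placebo was -0.0078 (95% confidence interval -0.24 to 0.22, limma adjusted p = 0.982), and later tumor minus none was 0.11 (-0.11 to 0.34, adjusted p = 0.631). The other 3 Igf1 probe sets gave treatment differences of -0.085 to -0.014.

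Igf2, the fetal growth factor of the imprinted locus on chromosome 7, was the member with a higher mean after tamoxifen. Placebo glands ranged from 7.54 to 7.68 with a median of 7.62, and tamoxifen glands from 7.52 to 7.92 with a median of 7.72. Of the 10 tamoxifen glands, 8 lay above the placebo median, and the ranges overlapped. The difference of 0.093 ± 0.042 (SE) did not pass (limma adjusted p = 0.319), and its second probe set, with a mean of 5.62 below the filter level, gave -0.0073.

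Igf1r, the receptor for both ligands, varied little between tamoxifen glands, from 9.01 to 9.12 (SD 0.033, n = 10), against 8.92 to 9.28 in placebo glands (SD 0.12, n = 10). All 10 tamoxifen glands lay below the placebo median of 9.13, a pattern not counted over all genes. The means differed by only -0.074 ± 0.042 (SE, limma adjusted p = 0.434). The test was of means, and the difference in spread was not tested. The other Igf1r probe sets had SDs of 0.12, 0.094, 0.084 and 0.10 in tamoxifen glands. In placebo glands these were 0.13, 0.19, 0.13 and 0.066, the last probe set having a mean of 6.42, below the filter level. A smaller spread after tamoxifen was thus not seen in every probe set.

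**Figure D1:**
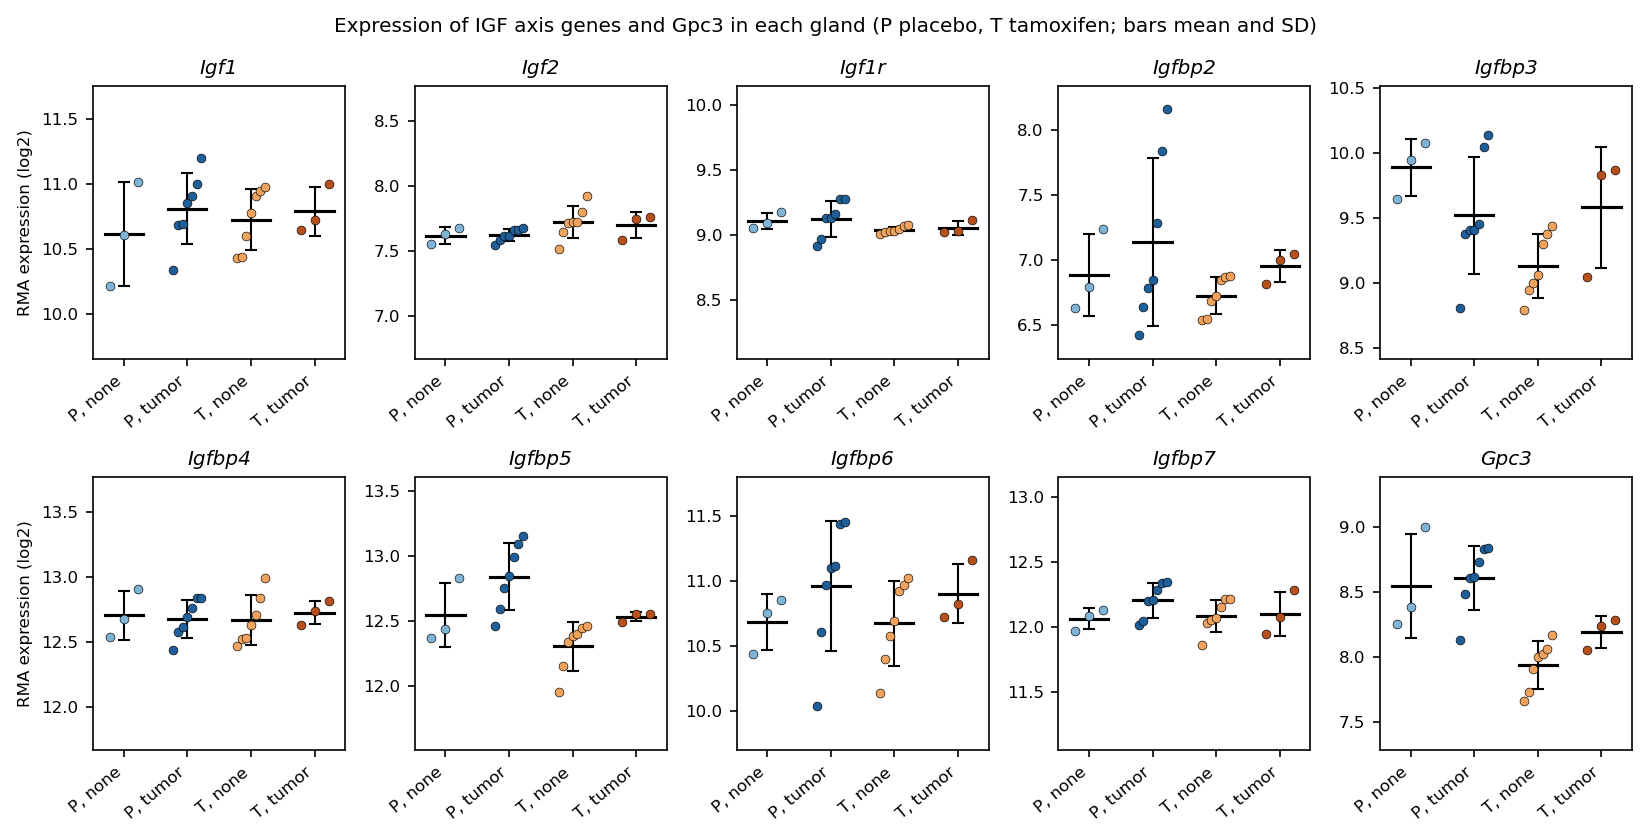
RMA expression (log2) of each of the 10 genes in every gland, by treatment (P placebo, T tamoxifen) and later outcome; points are glands and bars give the mean and SD. For Gpc3, tamoxifen glands without a later tumor lie at 7.66 to 8.17 and placebo glands with one at 8.13 to 8.84; the y axes differ between genes.

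Igfbp5 (Entrez ID 16011, chromosome 1, 72858065 to 72874865) encodes the binding protein tied to involution and matrix binding. In placebo glands with a later tumor it ranged from 12.46 to 13.16 with a median of 12.85. In tamoxifen glands without a later tumor it ranged from 11.95 to 12.46 with a median of 12.38. Placebo 8, the lowest of the first group, met the highest of the second, tamoxifen 6, and the other 6 placebo glands lay above all 7 tamoxifen glands. The 3 placebo glands without a tumor had 12.83 (animal 3), 12.44 (5) and 12.37 (6), and the 3 tamoxifen glands with a tumor had 12.55, 12.55 and 12.49 (animals 1, 2 and 10).

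Between the groups of 7, Igfbp5 was 1.45-fold lower after tamoxifen without a tumor (log2 difference -0.54 ± 0.11 SE, limma adjusted p = 0.00937). Its other probe set, lower in level, gave -0.36 (limma adjusted p = 0.0426). The order of the group means was placebo with tumor (12.84), placebo without (12.55), tamoxifen with (12.53) and tamoxifen without (12.30). No neighbours in that order differed beyond the test's threshold: within placebo animals tumor minus none was 0.29 ± 0.14 (SE, limma adjusted p = 0.353), and within tamoxifen animals 0.23 ± 0.14 (SE, limma adjusted p = 1.00). All 3 tamoxifen glands with a later tumor lay above all 7 without one, a separation seen in that direction or the other in 1.27% of all genes tested.

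Over all 20 glands, tamoxifen minus placebo was -0.38 ± 0.10 for Igfbp5 (SE, limma adjusted p = 0.131) and later tumor minus none was 0.37 ± 0.10 (SE, limma adjusted p = 0.101). All 10 tamoxifen glands lay below the placebo median and all 10 glands with a later tumor lay above the median of those without. How many of all genes show either pattern was not counted. With single animals left out, the limma adjusted p ran from 0.0493 to 0.173 for the outcome difference and from 0.046 to 0.23 for the treatment difference. The lowest outcome value came without placebo 3, where 84 of all genes passed, against 29 with every animal. The lowest treatment value came without placebo 6, where 110 of all genes passed, against 1. Among the animals numbered 1 to 5 and those numbered 6 to 10 in the labels, the treatment difference was -0.38 and -0.38. The outcome difference was 0.32 and 0.43. Treatment and outcome are unevenly mixed, so each of these differences holds part of the other. With each factor adjusted for the other, 0 of all genes passed in limma in either comparison.

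Gpc3 (Entrez ID 14734, chromosome X, 52272426 to 52613974, 1 probe set) differed most between treatments of the 10 genes over all 20 glands, though among glands without later tumors Igfbp3 differed more. Placebo glands with a later tumor ranged from 8.13 to 8.84 with a median of 8.62, and tamoxifen glands without one from 7.66 to 8.17 with a median of 8.00. Placebo 8 at 8.13 was the only placebo gland inside the range of those tamoxifen glands. The placebo glands without a tumor had 9.0 (animal 3), 8.39 (5) and 8.25 (6), all above the 7 tamoxifen glands without one. The tamoxifen glands with a tumor had 8.24, 8.28 and 8.05 (animals 1, 2 and 10), and animals 1 and 2 were the highest of the 10 tamoxifen glands.

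As a description, the 10 tamoxifen glands averaged 8.01 ± 0.20 (SD) and the 10 placebo glands 8.59 ± 0.28 (SD), a difference of -0.58 ± 0.10 (SE), or 1.49-fold. It was -0.65 among animals 1 to 5 and -0.50 among animals 6 to 10. Between the groups of 7 the difference was -0.67 ± 0.12 (SE), or 1.59-fold. Without later tumors, tamoxifen minus placebo was -0.61 ± 0.15 (SE), and with them -0.42 ± 0.15 (SE). The former rests in part on placebo 3, and was -0.38 without that animal. Such a full separation of the glands without tumors was seen in 2.37% of all genes tested.

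By later outcome, which the choice of Gpc3 is not known to have used, the level was 8.48 ± 0.29 (SD, n = 10) with a tumor and 8.12 ± 0.38 (SD, n = 10) without. The difference of 0.36 ± 0.14 (SE) did not pass (limma adjusted p = 0.204). All 10 glands with a tumor lay above the median of those without, a pattern not counted over all genes. The outcome groups hold unequal numbers of tamoxifen animals. The outcome difference and its p value therefore hold part of the treatment difference for which Gpc3 was known. Within placebo animals the outcome difference was 0.06 ± 0.15 (SE, limma adjusted p = 0.887), and within tamoxifen animals 0.25 ± 0.15 (SE, limma adjusted p = 1.00). The value in placebo animals had no stable sign, at 0.29 without placebo 3 and -0.088 without placebo 6.

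**Figure D2:**
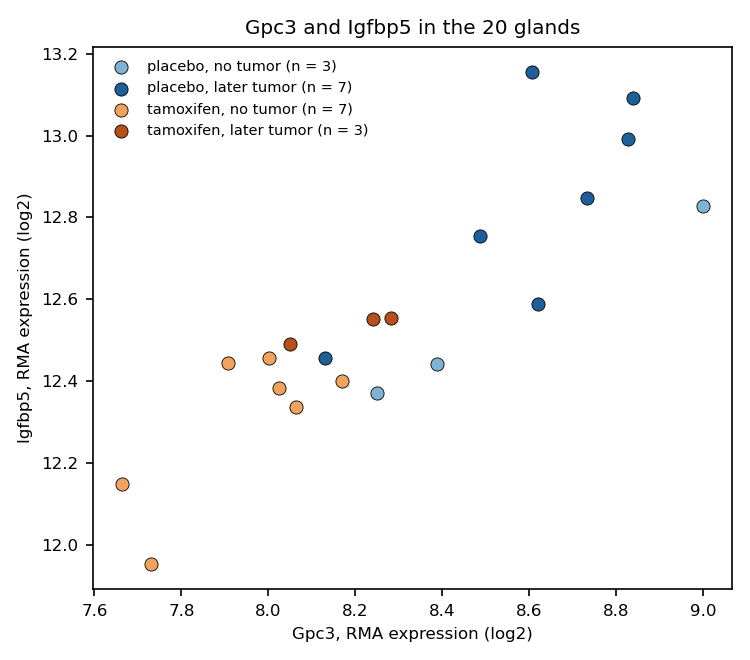
Igfbp5 against Gpc3 expression (both RMA log2) in each of the 20 glands, coloured by treatment and later outcome. The glands lie along 1 rising band (Pearson r = 0.871), with tamoxifen glands without a later tumor at its lower end.

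Gpc3 and Igfbp5 varied together from gland to gland, though other genes, named below, followed each of them more closely. How common such a correlation is among all genes was not counted. Over the 20 glands Pearson's r was 0.871 (permutation adjusted p = 0.00045 over 45 pairs of members) and Spearman's rho 0.812 (permutation adjusted p = 0.00135). The Pearson p behind the former was the smallest that 100000 permutations can give. Without the 2 glands farthest from the median of Igfbp5 r was 0.889, and without placebo 7, 8 and 9 it was 0.890. It was 0.926 among animals 1 to 5 and 0.908 among animals 6 to 10, each over both treatments. The permutations moved glands across the 4 groups, so these p values also hold the treatment difference for which Gpc3 was known. After the 4 group means were subtracted r was 0.785, a value with no test.

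Both genes also followed Igf1r, less closely. Igf1r and Igfbp5 had an r of 0.714 (permutation adjusted p = 0.00765) and a rho of 0.595 (permutation adjusted p = 0.067), and r was 0.559 without the 2 farthest glands. Igf1r and Gpc3 had an r of 0.664 (permutation adjusted p = 0.0193) and a rho of 0.588 (permutation adjusted p = 0.067). Without the 2 farthest glands r was 0.520 for that pair. The same limit holds for its p values. After the group means were subtracted, r was 0.712 for Igf1r with Igfbp5 and 0.620 for Igf1r with Gpc3. These 3 were the only pairs of the 45 past the threshold by Pearson's r, and by rho only Gpc3 with Igfbp5 remained among them. Of all pairs 31 were positive, with a median r of 0.214. The most negative were Igf2 with Gpc3 (-0.540, permutation adjusted p = 0.1), Igf2 with Igfbp3 (-0.481, 0.16) and Igfbp2 with Igfbp6 (-0.432, 0.176). Without the 2 farthest glands r was -0.324, -0.311 and -0.058 for these pairs, in that order. After the group means were subtracted it was -0.272, -0.349 and -0.679.

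**Figure D3:**
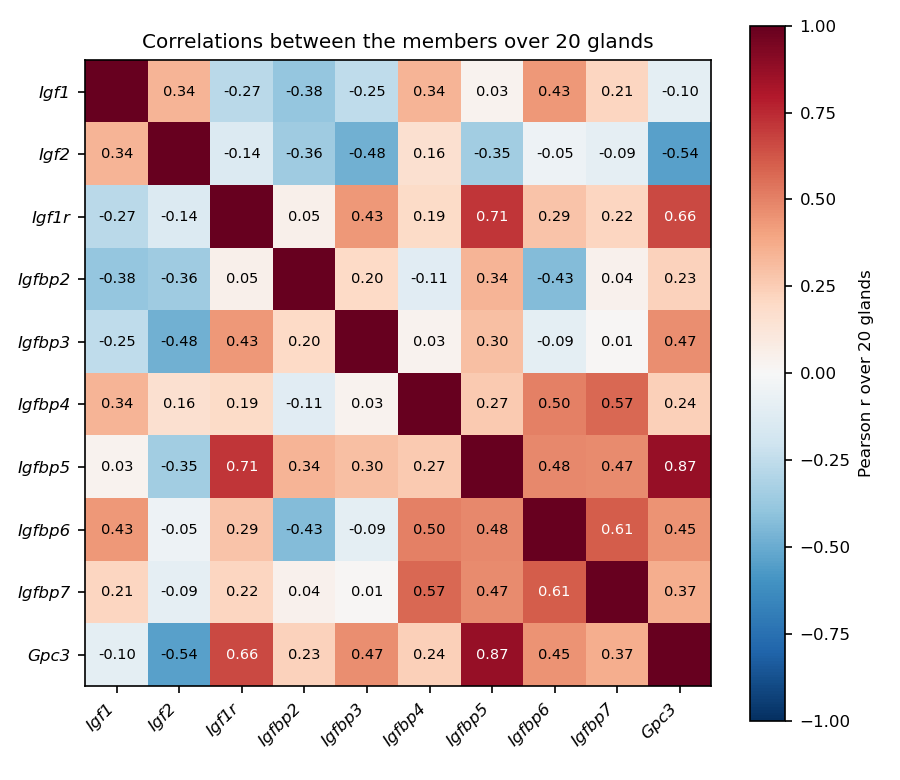
Pearson correlations between the 10 genes over the 20 glands, as a colour scale. Gpc3, Igfbp5 and Igf1r form the block of highest values (0.664 to 0.871), and Igf2 with Gpc3 is the lowest at -0.540.

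Among all genes tested, those whose levels were most like Gpc3 over the 20 glands were Sfrp2, a secreted modulator of Wnt signalling (r = 0.897), Antxr1, a collagen-binding receptor (0.889), and Islr (0.889). For Igfbp5 they were Lama2, a laminin chain of basement membranes (0.904), Arhgap42 (0.895) and again Sfrp2 (0.881). Igf1 was nearest to Steap4 (0.895), Lgals12, a galectin of adipocytes (0.885), and Hcar1, the lactate receptor of adipocytes (0.853). The nearest genes to Igf2 were Gal3st2 (0.823), Lhb (0.822) and Evi5l (0.814), and those to Igfbp3 were Ccnt2 (0.799), Xist (0.753) and Pde2a (0.744). The glands share groups and array processing in all these values, which are descriptions with no test.

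Igfbp3 (chromosome 11, 7206086 to 7215498), the main carrier of IGFs in blood, was highest in placebo glands without a tumor, at 9.65 (animal 3), 9.95 (5) and 10.08 (6). Tamoxifen glands without a tumor ranged from 8.80 to 9.44 with a median of 9.06, below all 3. Such a full separation, in either direction, was seen in 2.37% of all genes tested. Placebo glands with a tumor spanned 8.81 to 10.14 with a median of 9.41, and tamoxifen glands with one had 9.05, 9.83 and 9.87 (animals 1, 2 and 10). Both groups with tumors thus overlapped each of the others.

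Without later tumors, tamoxifen minus placebo was -0.76 ± 0.23 for Igfbp3 (SE, limma adjusted p = 0.448), and with them 0.06 ± 0.23 (SE, limma adjusted p = 0.962). The outcome difference was -0.37 ± 0.23 in placebo animals (SE, limma adjusted p = 0.475) and 0.45 ± 0.23 in tamoxifen animals (SE, limma adjusted p = 1.00). The interaction of 0.82 ± 0.33 (SE) had an unadjusted limma p of 0.0216 and an adjusted p of 0.938, so a difference between treatments was not shown. Over all glands tamoxifen minus placebo was -0.36 ± 0.17 (SE, limma adjusted p = 0.327). The second Igfbp3 probe set gave -0.38 for the same difference.

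Igfbp2, which lies 5590 bases from Igfbp5 on chromosome 1 (72824480 to 72852474), was near the filter level and exceeded it on 8 of 20 arrays. Placebo 8, 7 and 9 had 8.16, 7.84 and 7.28, and the other 4 placebo glands with a tumor had 6.42 to 6.85. Tamoxifen glands without a tumor lay between 6.54 and 6.87. The difference between the groups of 7 was -0.41 ± 0.21 (SE, limma adjusted p = 0.277), and 0.05 without placebo 7, 8 and 9. These 3 glands also had the highest summed levels of 10 luminal epithelial markers, at 14.18, 14.32 and 13.75 for animals 7, 8 and 9 against at most 13.56 in any other gland. The part of epithelial content in the Igfbp2 values was not tested beyond a fit with that list's mean as a covariate, which gave 0.25.

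The remaining binding proteins did not pass the test in any comparison. Igfbp4, the binding protein that inhibits IGF action and is cut by the Pappa protease, averaged 12.69 ± 0.15 (SD, n = 10) in placebo glands and 12.69 ± 0.16 (SD, n = 10) in tamoxifen glands. Its 95% confidence interval for tamoxifen minus placebo was -0.14 to 0.14, and its 6 probe sets gave differences of -0.031 to 0.011, on both sides of 0. Igfbp6, which prefers IGF2, was 10.94 ± 0.42 with a later tumor and 10.68 ± 0.29 without (SD, n = 10 each), a difference of 0.27 ± 0.15 (SE, limma adjusted p = 0.378). Igfbp7, a low-affinity member found in vessels and matrix, was 12.17 ± 0.14 and 12.08 ± 0.11 (SD, n = 10 each), a difference of 0.095 ± 0.057 (SE, limma adjusted p = 0.41).

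**Figure D4:**
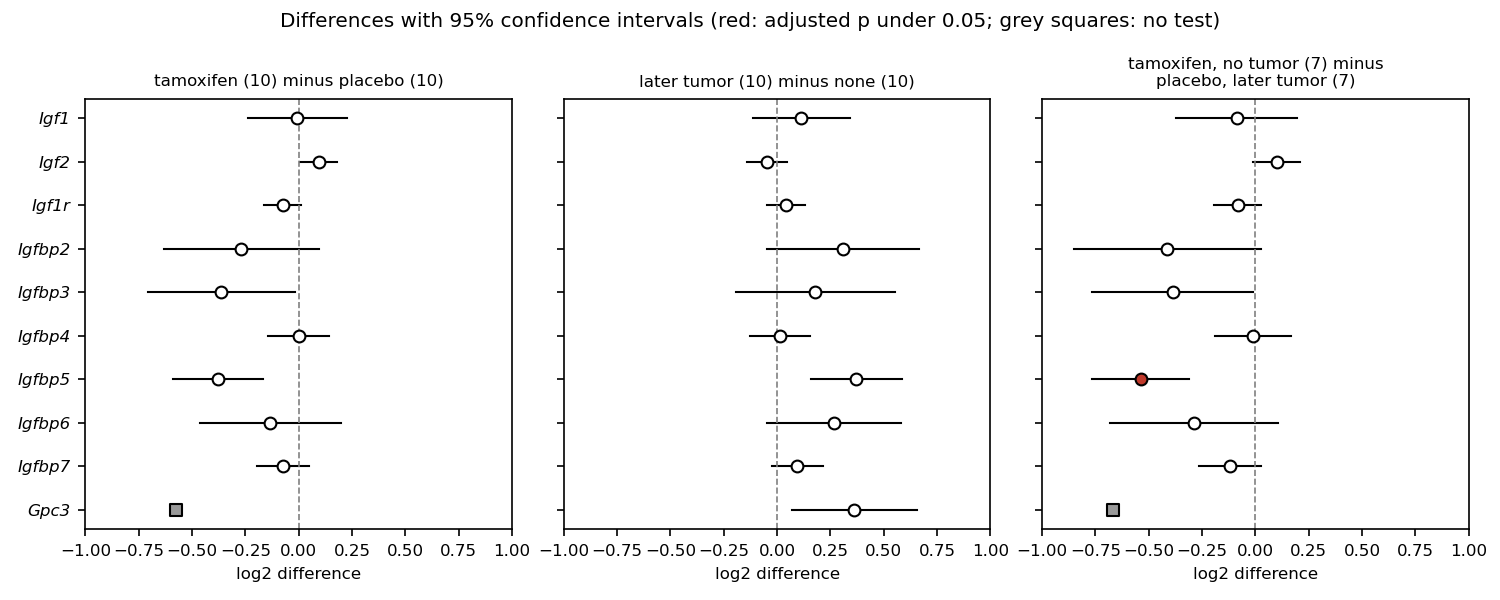
Log2 differences of the 10 genes with 95% confidence intervals for tamoxifen minus placebo, later tumor minus none, and tamoxifen without tumor minus placebo with tumor; red points have an adjusted p under 0.05, and grey squares are Gpc3 values given with no test. Igfbp5 (-0.54) is the only red point and lies in the last comparison, beside Gpc3 at -0.67.

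Across the 10 genes, tamoxifen minus placebo was negative for 9 and positive for Igf2, with a median of -0.10 against 0.0011 over all genes tested. Of the 9 genes other than Gpc3, 0 passed the adjusted threshold of 0.05 in limma, where 0.008% of all genes did. At an unadjusted p under 0.05 there were 3 (Igf2, Igfbp3 and Igfbp5), against 13.9% of all genes. Later tumor minus none was positive for 9 and negative for Igf2, with a median of 0.15 against -0.010. By limma 0 of 10 passed, where 0.232% of all genes did (0.2% higher, 0.032% lower). Gpc3 and Igfbp5 had an unadjusted p under 0.05, against 16.5% of all genes. The Gpc3 value holds part of its known treatment difference. Between the groups of 7, 1 of the 9 genes other than Gpc3 (Igfbp5) was lower and passed in limma, where 4.63% of all genes passed, 2.23% higher and 2.4% lower. The genes were chosen with earlier results known and the 3 comparisons share glands, so nothing is read from the counts or from the matching signs.

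In the other 5 pairs of groups and the interaction, 0 genes passed in limma, of 10 for the outcome and the interaction and of 9 where treatments differed. The share of all genes that passed was 0.008% for the outcome within placebo animals and 0.008% within tamoxifen animals, 0.064% for treatment without tumors, and 0 for the other pairs and the interaction. At an unadjusted p under 0.05 the members were Igfbp5 for the outcome within placebo animals, against 14.1% of all genes, and Igfbp3 for treatment without tumors (5.26%). They were Igfbp5 for treatment with tumors (7% of all genes) and Igfbp3 for the interaction (4.52%).

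**Figure D5:**
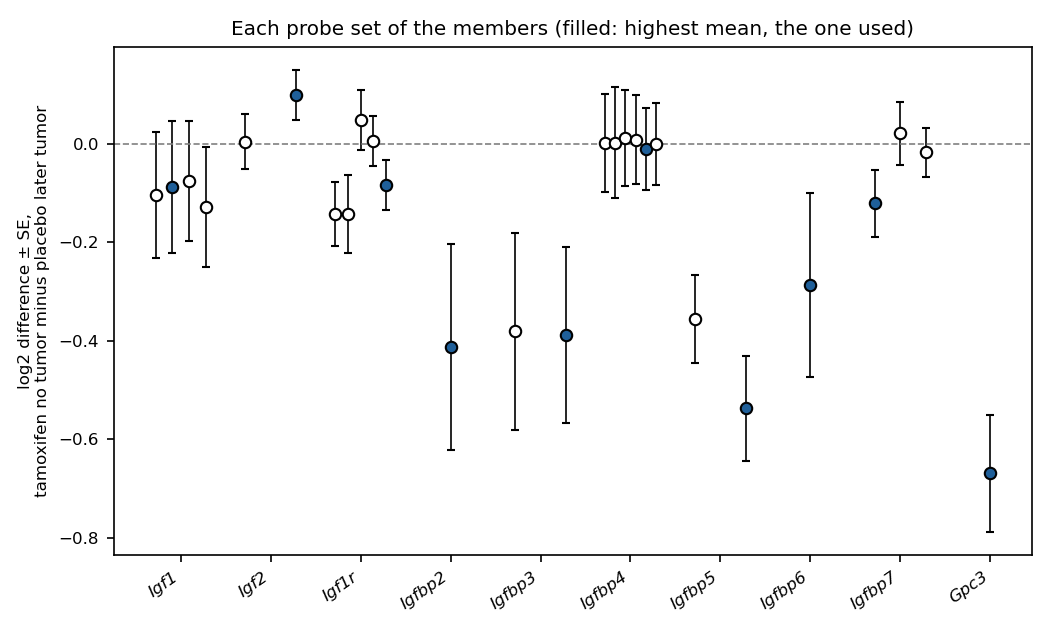
Log2 difference ± SE, tamoxifen without tumor minus placebo with later tumor, for each of the 27 probe sets of the 10 genes; the filled point is the brightest probe set of a gene, which the text uses. The Igfbp5 and Igfbp3 probe sets lie on the same side of 0, and the 6 of Igfbp4 lie close to 0.

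Tissue markers moved between the same groups of 7. In limma, 7 of 10 luminal epithelial markers, 6 of 7 milk genes, 2 of 8 basal and 2 of 8 fibroblast markers were lower after tamoxifen without a tumor, while 7 of 7 T cell and 6 of 9 skeletal muscle markers were higher, against 2.4% of all genes lower and 2.23% higher. Of macrophage markers 1 of 7 was lower, and 0 of 7 adipocyte and 0 of 8 endothelial markers passed. Summed over the list, luminal epithelial markers ran from 12.13 to 13.28 in those tamoxifen glands and from 13.07 to 14.32 in the placebo glands with a tumor. Skeletal muscle markers ran from 11.30 to 15.46 and from 9.43 to 12.22, and fibroblast markers overlapped almost fully, at 15.51 to 16.01 and 15.56 to 16.20. Epcam, an epithelial adhesion protein, averaged 10.11 ± 0.39 and 11.42 ± 0.59 (SD, n = 7 each), Krt14, a basal keratin, 8.14 ± 0.45 and 8.65 ± 0.76, and Ckm, the muscle creatine kinase, 9.94 ± 1.56 and 7.82 ± 0.72. In bulk glands, fewer cells of a type and less RNA per cell cannot be told apart.

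With the luminal epithelial list mean as a covariate the difference between the groups of 7 was -0.65 for Gpc3 and -0.43 for Igfbp5 (limma adjusted p = 0.989 for Igfbp5), and 6 genes in all passed. With the skeletal muscle list mean instead it was -0.74 for Gpc3 and -0.64 for Igfbp5 (limma adjusted p = 0.019 for Igfbp5). Placebo 8, the gland with the highest luminal epithelial sum, had the lowest Gpc3 and the lowest Igfbp5 level of the placebo glands with a tumor. Its array also had the lowest of all weights (0.20) in the fit with array weights. Placebo 9, also high in that sum (13.75), had the highest Igfbp5 level of the same group (13.16). How either gene follows epithelial content from gland to gland was not tested. Without placebo 7, 8 and 9 the differences were -0.73 for Gpc3 and -0.49 for Igfbp5 (limma adjusted p = 0.03 for Igfbp5).

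Of 44 other genes of the IGF pathway and other glypicans, 34 were tested, and 1 passed in limma between the groups of 7, where 4.63% of all genes did. It was Pappa, the metalloprotease that frees IGFs by cutting IGFBP4 and IGFBP5. Pappa averaged 6.99 ± 0.08 (range 6.90 to 7.13) in tamoxifen glands without a tumor and 7.29 ± 0.21 (7.05 to 7.69) in placebo glands with one (SD, n = 7 each), with overlap. It was 1.23-fold lower (-0.30 ± 0.076 SE, limma adjusted p = 0.0317). The call was lost with array weights (adjusted p = 0.0551), with either list mean as a covariate (0.131 for muscle, 0.989 for luminal epithelium), without placebo 7, 8 and 9 (0.174), and when placebo 7 or tamoxifen 3, 4, 6 or 7 was left out alone (0.0517 to 0.0717).

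By treatment, 0 of the 34 passed in limma, where 0.008% of all genes did, with 4 at an unadjusted p under 0.05, against 13.9% of all genes. The smallest p values were those of Pappa (-0.24, adjusted p = 0.131) and Gpc6 (-0.27, adjusted p = 0.183), another glypican. By outcome, 0 of 34 passed in limma, where 0.232% of all genes did, with 6 at an unadjusted p under 0.05, against 16.5% of all genes. The smallest were those of Foxo1, a transcription factor that IGF signalling keeps out of the nucleus, at -0.25 (limma adjusted p = 0.128), and Igfals, the acid-labile subunit that stabilises the blood complex of IGFBP3, at 0.30 (limma adjusted p = 0.137).

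By role, between the groups of 7, 0 of 5 other ligands, receptors and carriers tested passed in limma, 1 of 6 proteases and inhibitors (Pappa, lower), 0 of 17 signalling genes, 0 of 3 genes of Igf2 mRNA handling and 0 of 3 other glypicans. The 3 glypicans were named after their values were seen. Gpc6 differed by -0.36 (limma adjusted p = 0.0519), Gpc4, whose gene lies 107502 bases from Gpc3 on chromosome X, by -0.30 (limma adjusted p = 0.0875), and Gpc1 by -0.06 (limma adjusted p = 0.85). None of them passed in limma, and Gpc4 in tamoxifen glands without a tumor (9.0 to 9.71) overlapped placebo glands with one (9.56 to 10.02).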

How the data were processed

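Total RNA of 20 mammary glands, 1 per animal, was labelled with biotin and hybridised to Affymetrix arrays, as the labels state. The authors deposited log2 expression per probe set. RMA is named in the submitters' processing notes, and its version was not given in the sources used here. Probe sets were joined to genes by the platform's symbols and Entrez IDs, and positions and promoters are RefSeq's on GRCm38.p6. Each gene took its probe set with the highest mean, and genes above the overall median (6.85) on 3 or more arrays were tested (12499). limma 3.58.1 in R 4.3.3 (lmFit, eBayes, two-sided, Benjamini-Hochberg over all genes tested, threshold 0.05) compared treatments, outcomes, and the 4 groups in 1 model, with Gpc3 left out of counts between treatments. The procedure was tested on simulated data. Correlations used 100000 permutations (scipy 1.17.1), adjusted over 45 pairs.

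Members and lists were chosen with earlier results of these data known. The named genes were all members, pathway genes past the threshold (at most 4 a comparison, otherwise the 2 smallest p), the 3 highest and 3 lowest correlations, and the 3 genes most like each of Gpc3, Igf1, Igf2, Igfbp3 and Igfbp5. Alternatives covered scaling, filter, probe set, variance model, array weights, blocks, adjustment for the other factor, tissue list means as covariates and left-out animals. Listed genes without a matched probe set are not analysed here.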

Additional observations from a re-analysis of the deposited data

How the results depend on the processing

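Between tamoxifen glands without and placebo glands with a later tumor, Igfbp5 kept its direction under every setting listed for it, at -0.60 to -0.48 and called each time with single animals left out, and at -0.65 to -0.36 otherwise. Gpc3, not tested there, ranged from -0.75 to -0.62. Leaving out Gpc3, the count of members called there was 1. It was 0 with the luminal epithelial list mean as a covariate, where few genes of any kind passed, and 2 with the replicate block, which added Igfbp2 (-0.81, limma adjusted p = 0.045). That block called 1647 of all genes, against 579 without it. With single animals left out the count was 0 to 1 by treatment and 0 to 1 by outcome. Without placebo 7, 8 and 9, 141 genes passed. Same-numbered animals were not used as pairs outside that block, since the labels do not say what equal numbers mark. Correlations of their deviations from group means ran from -0.10 to 0.59 for treatment numbers, with 4 of 10 over 0.1. For outcome numbers they ran from -0.22 to 0.32, with 1 of 10. By these schemes 3 and 1 animals correlated best with their own number. By treatment the replicate block called 235 of all genes, against 1 without it. These values cannot settle whether equal numbers mark pairs.

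Signs changed for small values, and for Igfbp2 also for larger ones. Igf1 by treatment was 0.00060 after quantile normalization, 0.045 adjusted for outcome and -0.068 to 0.042 with animals left out, and between the groups of 7 it was 0.10 with the replicate block. Igfbp4 by treatment was 0.0051 adjusted for outcome, 0.011 and 0.0012 in other probe sets and -0.035 to 0.023 with animals left out. By outcome it was -0.010 as the mean of probe sets, -0.033, -0.014, -0.0074 and -0.019 in single ones, and -0.010 to 0.048 with animals left out. Between the groups of 7 it was 0.0029 as the mean, 0.0019, 0.0029, 0.013, 0.0090 and 0.00080 in single ones, and -0.064 to 0.023 with animals left out. Igfbp2 was -0.27 by treatment, 0.31 by outcome and -0.41 between the groups of 7 in the main fit. Without placebo 7, 8 and 9 it was 0.030 by treatment and 0.054 between the groups of 7. With the luminal epithelial covariate it was 0.0023 by treatment, -0.13 by outcome and 0.25 between the groups of 7. One Igf1r probe set gave 0.035 by treatment, -0.034 by outcome and 0.049 between the groups of 7, and another, below the filter level on average, 0.021, 0.012 and 0.0066. With animals left out, Gpc3 by outcome in placebo animals was -0.088 to 0.29 and Igfbp3 by treatment with tumors -0.081 to 0.33. Beyond what each alternative's construction shows, the cause was not tested.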
